A study of Mus musculus with 5 samples.

Results

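The complement genes described here are 30 genes of the complement cascade, its regulators and its receptors, followed across livers of mice given troglitazone or rosiglitazone. They were taken as the listed gene names found among the non-control probes of the array, and all 30 were found, with 51 probes among them, out of 36866 gene names on the array. The study hybridised liver RNA of female BALB/c mice aged 6 weeks, collected 6 hr after intraperitoneal dosing. Of the 5 groups, 1 received vehicle. A further group received troglitazone (TGZ) and another rosiglitazone (RGZ), each dosed at 300 mg/kg, and the remaining pair of groups received the same dose of TGZ or of RGZ together with buthionine sulfoximine (BSO) at a dose of 700 mg/kg. Each group was 1 pool of RNA from 6 animals on 1 array, and BSO was given only with a thiazolidinedione. Nothing here therefore measures the spread between mice and no test between groups was possible. TGZ and RGZ are thiazolidinediones, drugs that activate the nuclear receptor PPAR gamma, and BSO blocks glutathione synthesis.

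Complement is a set of plasma proteases, binding proteins and membrane receptors that marks and lyses microbes and damaged cells. The classical pathway is started by C1q on antibody or altered surfaces, the lectin pathway by mannose-binding lectins and ficolins on sugars, and the alternative pathway by slow turnover of C3 itself. All 3 routes meet at the cleavage of C3 and continue to C5, whose fragment starts the membrane attack complex. Hepatocytes make most of the plasma components, Kupffer cells make C1q, and myeloid cells carry the receptors for the C3a and C5a fragments. Several hepatic components are known as acute phase proteins.

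Values are scaled signals, the processed fluorescence of a probe divided by the 75th percentile of its array. A gene is represented by its brightest measurable probe, and signals are compared between groups for 1 probe only, never between genes. Differences are on the log2 scale, with a 95% interval that covers the scanner software's error of the spots and not the variation between animals. That error was nearly the same on every array (median SD 0.146) and for most members. An interval that excludes 0 therefore acts much like a fixed fold cutoff. A gene was counted as different where the difference reached 2-fold. The signal of 28 of the 30 genes was well above background in all 5 pools. C3ar1 was well above background on 3 arrays, those of vehicle, RGZ and BSO plus RGZ, and Cd46 on 0 arrays with any of its probes.

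The liver identity of the pools was plain: all 10 hepatocyte markers were well above background on every array, with a summed scaled signal of 8541 in vehicle, 10707 with TGZ, 9449 with BSO plus TGZ, 7844 with RGZ and 7887 with BSO plus RGZ. Between 51.9% and 55.1% of probes were well above background per array, and 0 spots were saturated. In bulk RNA, fewer cells of a type and less RNA per cell cannot be told apart.

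Most complement transcripts stayed near their vehicle level in all 4 treated pools. Of the 28 genes measured on every array, 19 had less than a 1.5-fold span from the lowest to the highest group, and 1, C5ar1, spanned at least 2-fold. With TGZ, 1 of 29 tested members was at least 2-fold higher and 0 lower, where 10.1% of all 21326 genes with a value were higher and 9.47% lower. With BSO plus TGZ the counts were 1 higher and 0 lower, beside 8.31% and 5.89% of all genes. With RGZ none of 29 members was higher or lower, beside 1.65% and 1.66% of all genes, and with BSO plus RGZ none was, beside 3.05% and 3.78%. In either direction 19.6% of all genes were past 2-fold after TGZ and 14.2% after BSO plus TGZ, as were 3.31% after RGZ and 6.82% after BSO plus RGZ. These 4 comparisons share the vehicle array, so an error on it moves all of them.

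Over genes measured on both arrays, the median absolute log2 difference of members was 0.26 with TGZ, 0.18 with BSO plus TGZ, 0.15 with RGZ and 0.16 with BSO plus RGZ, beside 0.39, 0.33, 0.21 and 0.29 for all genes. Members within 1.5-fold of vehicle numbered 24 of 28 with TGZ, 26 of 28 with BSO plus TGZ, 29 of 29 with RGZ and 28 of 29 with BSO plus RGZ, beside 65.3%, 71.5%, 88.3% and 79.3% of all genes. The signed medians of members were 0.01, 0.12, 0.11 and 0.02 in the same order, and with C3ar1 at its bound those of the TGZ pools were -0.02 and 0.10. Members are mostly bright, and bright genes moved less in general. Among the 4324 genes with a mean scaled signal of at least 10, which include 21 members, 11.5% were at least 2-fold different in either direction with TGZ, 8.21% with BSO plus TGZ, 2.15% with RGZ and 4.28% with BSO plus RGZ, and of the 21 members 0 were in each.

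**Figure D1:**
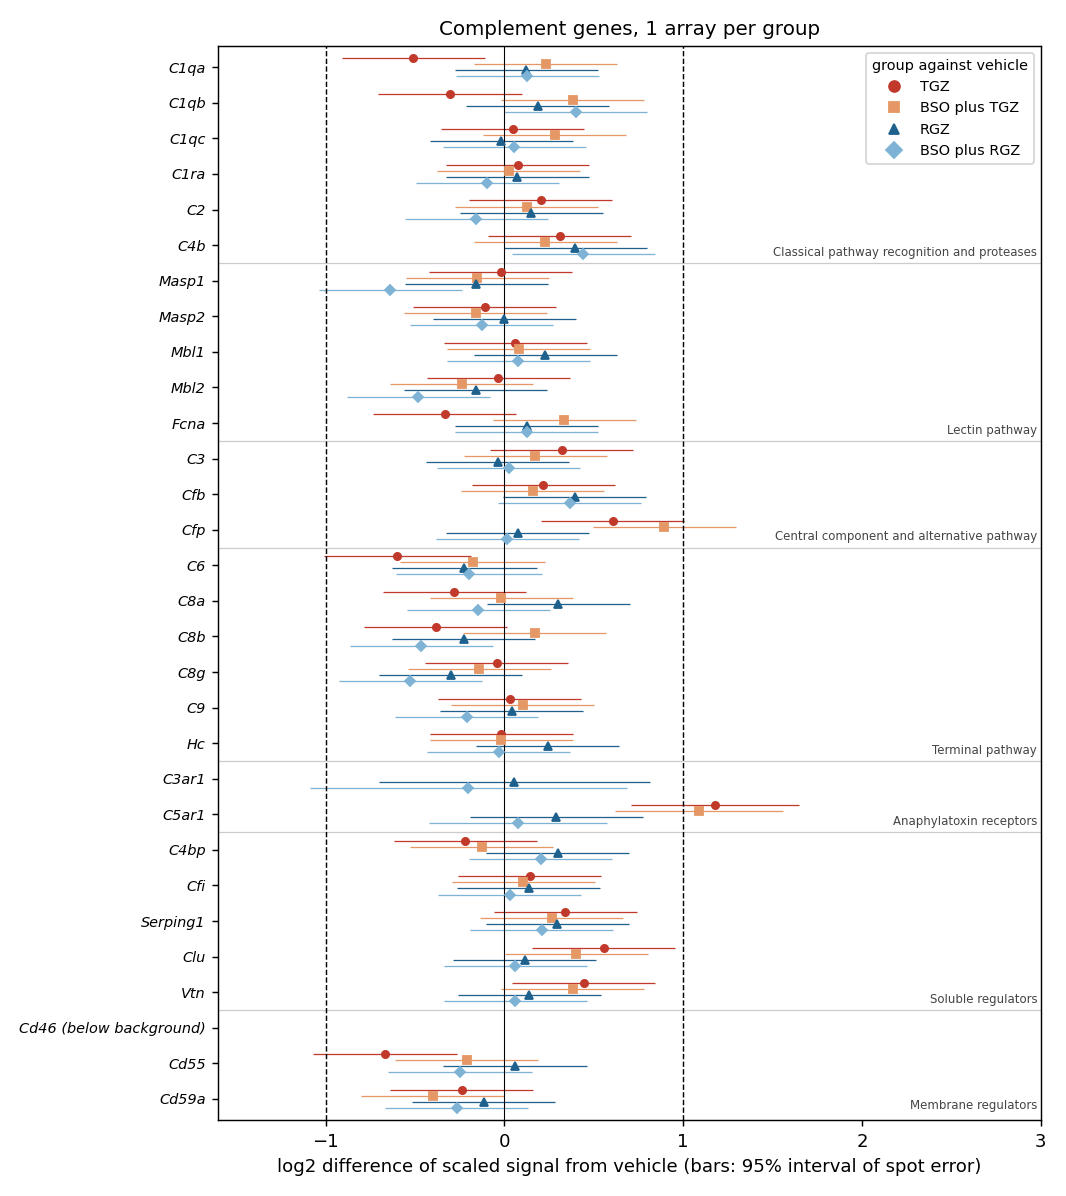
Log2 difference of the scaled signal from vehicle (x axis) for each complement gene (y axis, grouped by role) in 4 treated groups, with bars for the 95% interval of spot error and dashed lines at 2-fold. C5ar1 lies beyond the line in both TGZ pools, at 1.18 and 1.09, and every other point lies between the lines. C3ar1 has no point where only a bound was available, and Cd46 has none.

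The scaling decides where 0 lies. With spike-in scaling the median of all genes moved by -0.44 for TGZ against vehicle, and 25 of 29 members, C3ar1 at its bound among them, were then below vehicle, against 15 with the 75th percentile. All genes counted as higher and lower went from 2150 and 2020 to 1227 and 4209 for TGZ, from 1781 and 1262 to 1458 and 1818 for BSO plus TGZ, from 352 and 354 to 448 and 264 for RGZ, and from 646 and 801 to 899 and 578 for BSO plus RGZ. Median scaling gave 845 and 621 for BSO plus RGZ. Differences of members are best read against these shifts, which touch every gene of a comparison alike.

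The listed acute phase genes of the same livers moved far more. That list was drawn up without complement members, so acute phase members such as C3 are not in it. It was chosen with earlier results of these data known, so the contrast with the members depends in part on the choice of genes. Of 21 listed hepatic acute phase genes, none of them a member, 15 were at least 2-fold higher with TGZ, 13 with BSO plus TGZ, 13 with RGZ and 15 with BSO plus RGZ, with median log2 differences of 1.90, 1.80, 1.61 and 1.95. The 23 coagulation genes encode the other large plasma cascade made by the liver. TGZ left 3 of them at least 2-fold higher and 1 lower, BSO plus TGZ 2 and 0, RGZ 1 and 0, and BSO plus RGZ 2 and 2. The fibrinogen chain genes Fga, Fgb and Fgg are on both lists, and every coagulation gene counted as higher was 1 of these 3. Fga, the alpha chain, was 3.72-fold, 3.47-fold, 3.05-fold and 3.87-fold higher in the same order. Fga was the coagulation gene farthest above vehicle in all 4 comparisons. Fgb was at 809 in vehicle, 2378 with TGZ, 1924 with BSO plus TGZ, 1517 with RGZ and 1726 with BSO plus RGZ. Fgg was at 918, 2115, 1815, 1369 and 1502 in that order. Klkb1, the plasma prekallikrein gene, was the farthest below with BSO plus RGZ, at -1.40. In the other 3 comparisons F11, the factor XI gene, named here after its values were seen, was the farthest below, at -1.01, -0.88 and -0.92 after TGZ, BSO plus TGZ and RGZ.

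**Figure D2:**
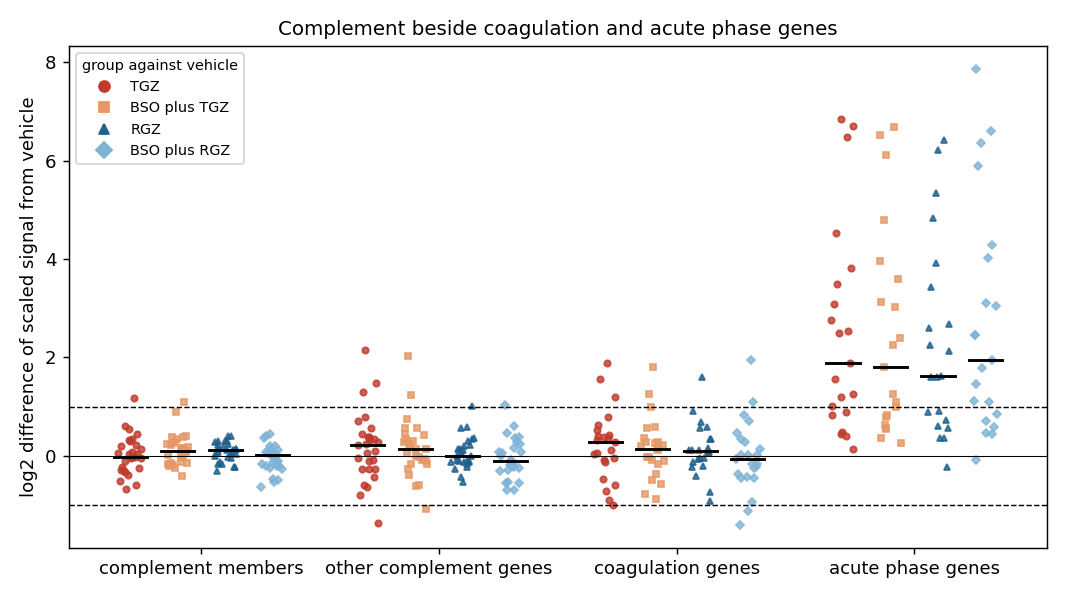
Log2 difference of the scaled signal from vehicle (y axis) for the 30 complement members, 27 other complement genes, 23 coagulation genes and 21 acute phase genes, in 4 treated groups, 1 point per gene measured on both arrays and a black bar at the median (genes with a bound counted at the bound), with dashed lines at 2-fold. The members' medians lie between -0.02 and 0.11 and the acute phase medians between 1.61 and 1.95. Genes with only a bound, such as Cfd with RGZ, have no point.

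Among the recognition and protease genes of the classical pathway, none of 6 was past 2-fold in any comparison. C1qa, C1qb and C1qc encode the 3 chains of C1q. The scaled signal of C1qa was 2.65 in vehicle, 1.86 with TGZ, 3.11 with BSO plus TGZ, 2.88 with RGZ and 2.90 with BSO plus RGZ. That of C1qb was 1.39, 1.13, 1.81, 1.58 and 1.83 in the same order. TGZ alone was the lowest pool for both, and for C1qa its difference from vehicle was -0.51, with an interval of -0.91 to -0.11. C1qc was at 10.5, 10.8, 12.8, 10.4 and 10.9, so its TGZ pool was not low.

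The summed signal of the 10 macrophage markers was 81.1 in vehicle, 68.8 with TGZ, 92.2 with BSO plus TGZ, 80.5 with RGZ and 73.0 with BSO plus RGZ, all 10 well above background on every array. The sum was lowest with TGZ and highest with BSO plus TGZ, as C1qa was, but it is carried mostly by the bright probes of Lyz2, Csf1r, Cd5l and Clec4f. Each of these was lower with TGZ than in vehicle, and so were the dimmer Adgre1, Timd4 and Vsig4. The median log2 difference of the 10 markers was -0.34 for TGZ against vehicle and 0.53 for BSO plus TGZ against TGZ. Single markers did not all share 1 order. Cd68 was past 2-fold higher with TGZ, 1.54 above vehicle on the log2 scale, and Cd163 was at 2.40 in vehicle and 3.54 with TGZ. Marco was at 2.18 and 2.26 in these pools, and highest in the RGZ pools at 7.48 and 7.83. The part of these cells in the C1q values was not tested.

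C1ra, a protease of the C1 complex, ranged from 49.9 to 56.1 and C2, the protease of the C3 convertase, from 37.3 to 47.9. C4b, the C4 component, was at 293 in vehicle, 363 with TGZ, 344 with BSO plus TGZ, 386 with RGZ and 398 with BSO plus RGZ. All 4 treated pools were above vehicle, and with BSO plus RGZ the difference of 0.44 had an interval of 0.04 to 0.84. A second, dimmer C4b probe, which is also listed for the RefSeq transcript of a closely related gene, gave 0.38, 0.29, 0.66 and 0.61 in the same order of treated pools. C4a, a near-identical copy of C4b, was 0.38, 0.25, 0.57 and 0.61 above vehicle by its own probe, and the values of the pair are uncertain to the extent that their probes see both. With spike-in scaling the main C4b probe was at -0.13 with TGZ and stayed above vehicle in the other 3 pools.

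In the lectin pathway none of 5 genes was past 2-fold by its main probe. Mbl2, the mannose-binding lectin C gene, was at 290.4 in vehicle, 284 with TGZ, 246 with BSO plus TGZ, 260.1 with RGZ and 208 with BSO plus RGZ. It was lowest with BSO plus RGZ, at -0.48 with an interval of -0.88 to -0.08. Mbl1 ranged from 10.6 to 12.4 and Masp2, the C4-cleaving protease gene, from 31.7 to 35.4. Fcna, the ficolin A gene that Kupffer cells are known to express, was at 3.52, 2.79, 4.44, 3.85 and 3.84 in the order vehicle, TGZ, BSO plus TGZ, RGZ and BSO plus RGZ. It had its lowest value with TGZ and its highest with BSO plus TGZ.

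Masp1 was measured by 5 probes that gave different answers. The gene is known to yield several proteins that share a first part and differ at the end, among them the proteases MASP-1 and MASP-3. The first 30 bases of each probe are shown because the difference depends on the probe, ordered from the 5′ side to the 3′ side of the minus strand on chromosome 16 (mm9), with no part in capitals.
Masp1 probe at chr16:23490405-23490464: gagtagaggaaaccacgggcctcagctata
Masp1 probe at chr16:23479833-23479892: caatgggtgattattttaatctctcagtga
Masp1 probe at chr16:23468544-23468603: aactgggaagagtcatcaaaacacactcca
Masp1 probe at chr16:23452460-23452519: gagtctattcttacatctatcccaacaagg
Masp1 probe at chr16:23449609-23449668: tccaggcaactgaaatctacctcccgagaa

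The probe nearest the 5′ side was at 2.96 in vehicle, 7.45 with TGZ, 6.76 with BSO plus TGZ, 2.72 with RGZ and 2.36 with BSO plus RGZ. Both TGZ pools stood above the other 3. The difference from vehicle was 1.33 (0.93 to 1.73) after TGZ alone and 1.19 (0.79 to 1.59) after BSO plus TGZ. The next probe was at 0.0890, 0.187, 0.215, 0.114 and 0.159, also highest in the TGZ pools but dim. The middle probe was at 15.0, 27.5, 24.6, 11.4 and 9.16, with differences of 0.87 and 0.71 with TGZ and BSO plus TGZ and of -0.40 and -0.72 with RGZ and BSO plus RGZ.

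The fourth probe gave 0.52 with TGZ and 0.37 with BSO plus TGZ. The probe nearest the 3′ side, which is the brightest and stands for the gene, was at 25.9, 25.6, 23.4, 23.3 and 16.7. Its differences were -0.02, -0.15, -0.16 and -0.64 with TGZ, BSO plus TGZ, RGZ and BSO plus RGZ. With TGZ the 5 differences thus fell in order from 1.33 to -0.02 along the gene. A range of at least 2-fold between probes was found with TGZ in 37.2% of the 556 genes with 4 or more measured probes, so it is not rare on these arrays. Whether the probes see different transcripts of Masp1 was not tested.

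Between the 2 drugs, the middle and the first Masp1 probes were 2.41-fold and 2.74-fold higher with TGZ than with RGZ, and 2.68-fold and 2.86-fold higher with BSO plus TGZ than with BSO plus RGZ. The probe that stands for the gene was 1.10-fold and 1.40-fold higher.

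**Figure D3:**
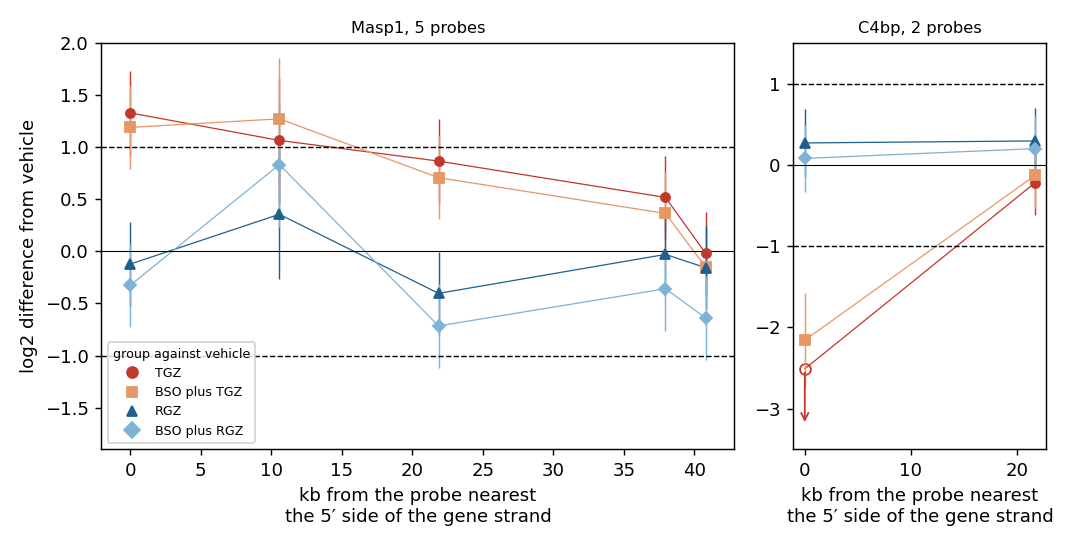
Log2 difference of the scaled signal from vehicle (y axis) for each probe of Masp1 (left) and C4bp (right) by its distance in kb from the probe nearest the 5′ side (x axis), in 4 treated groups, with bars for the 95% interval of spot error and dashed lines at 2-fold. The Masp1 differences with TGZ go from 1.33 to -0.02, and 1 of the 2 C4bp probes is far below vehicle in both TGZ pools. The open circle with an arrow is a bound, where the TGZ array was not well above background.

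C3, the component on which all pathways meet, was at 1954 in vehicle, 2438 with TGZ, 2202 with BSO plus TGZ, 1905 with RGZ and 1988 with BSO plus RGZ. The largest difference from vehicle was 0.32 with TGZ, with an interval of -0.08 to 0.72, and it was -0.12 with spike-in scaling. This probe was brighter than the brightest spike-in RNA on every array, by 1.37 to 1.61 times, so it lies above the range that the spike-in RNAs cover. A second C3 probe, below the brightest spike-in RNA in the vehicle and both TGZ pools, gave 0.27, 0.17, 0.29 and 0.31. The probes differed most for the RGZ pools, where the first gave -0.04 and 0.03.

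Cfb, the alternative pathway protease factor B, was at 212 in vehicle, 247 with TGZ, 237 with BSO plus TGZ, 279 with RGZ and 274 with BSO plus RGZ. The largest difference by this main probe was 0.39 with RGZ, with an interval of -0.01 to 0.79. A second, dimmer Cfb probe was at 35.01 in vehicle, 39.15 with TGZ and 36.51 with BSO plus TGZ. It was at 47.94 with RGZ and highest with BSO plus RGZ, at 49.73. The interval above is of the main probe only, so the largest difference and its pool depend on the probe. Cfp encodes properdin, which stabilises the alternative pathway convertase and is known to come from myeloid cells. It was at 8.78 in vehicle, 13.4 with TGZ, 16.3 with BSO plus TGZ, 9.25 with RGZ and 8.88 with BSO plus RGZ. Both TGZ pools stood above the other 3, by 1.52-fold (interval 1.15 to 2.01) and 1.86-fold (1.41 to 2.45) over vehicle, and neither reached 2-fold. With spike-in scaling these differences were 0.16 and 0.73. A second, dimmer Cfp probe was at 1.11 in vehicle, 1.44 with TGZ, 1.94 with BSO plus TGZ and 1.25 in both RGZ pools. Its difference between TGZ and vehicle was thus smaller than that of the main probe.

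The C3 promoter is shown because C3 is a known acute phase gene of the cascade, and that of C5ar1 because it was the gene past 2-fold. Both are the 250 bases before the start in RefSeq's GRCm38.p6, on the minus strand. Capitals mark matches on either strand to TTGCNNAA (C/EBP), TTCNNNGAA (STAT) and an NF-kappaB pattern, a run of G and a pair of C with any bases between. In C3 a pair of matches of the last motif overlap, 197 and 196 bases before the start, and no match was found in C5ar1.
C3 promoter, chr17:57228137-57228386: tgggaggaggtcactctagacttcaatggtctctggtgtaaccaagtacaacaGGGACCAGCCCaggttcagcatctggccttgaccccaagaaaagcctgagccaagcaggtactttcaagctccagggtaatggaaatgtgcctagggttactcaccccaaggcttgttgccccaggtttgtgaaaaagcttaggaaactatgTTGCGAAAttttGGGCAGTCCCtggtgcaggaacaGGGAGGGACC
C5ar1 promoter, chr7:16259339-16259588: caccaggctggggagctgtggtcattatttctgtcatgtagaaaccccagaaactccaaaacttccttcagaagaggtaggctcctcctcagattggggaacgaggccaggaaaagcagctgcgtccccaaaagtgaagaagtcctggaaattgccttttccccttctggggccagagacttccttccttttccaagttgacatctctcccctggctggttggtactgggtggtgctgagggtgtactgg

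Promoters were matched for 22 of the 30 members. The C/EBP letters were found in 2 of the 22 (C3 and C9) and in 10.8% of all genes, the STAT letters in 2 (C8a and Masp2) and in 8.13%, and the NF-kappaB letters in 8 and in 48.7%. These counts describe letters in a window and not binding sites.

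In the terminal pathway, which builds the membrane attack complex, none of 6 genes was past 2-fold. All 6 were below vehicle with BSO plus RGZ, from -0.53 for C8g to -0.03 for Hc, the C5 gene, although with median or spike-in scaling 5 of 6 were. C8b and C8g had intervals below 0. The C8 genes encode the 3 chains of C8. C8g was at 346 in vehicle, 336 with TGZ, 314 with BSO plus TGZ, 281 with RGZ and 240.5 with BSO plus RGZ. C8b was at 29.6, 22.6, 33.3, 25.3 and 21.4, and C8a at 37.9, 31.2, 37.4, 46.7 and 34.3. The 3 chains did not share an order over the groups. C6 was at 0.736 in vehicle and lowest with TGZ at 0.486, a difference of -0.60 (-1.01 to -0.19). C9, the pore-forming subunit, ranged from 44.3 to 55.1 and Hc from 28.2 to 34.0.

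C5ar1, the receptor for C5a that neutrophils and macrophages are known to carry, was the member farthest from vehicle. Its scaled signal was 0.187 in vehicle, 0.424 with TGZ, 0.399 with BSO plus TGZ, 0.229 with RGZ and 0.197 with BSO plus RGZ. Both TGZ pools stood above the other 3. The fold over vehicle was 2.26 (interval 1.63 to 3.13) with TGZ and 2.13 (1.54 to 2.95) with BSO plus TGZ, and 1.22 and 1.05 with RGZ and BSO plus RGZ, whose intervals include no difference. The signal was well above background on every array. With spike-in scaling, the TGZ and BSO plus TGZ differences of C5ar1 were below 2-fold, and with normexp background correction they were too, while all 8 settings kept them above 0 on the log2 scale, between 0.59 and 1.19 with TGZ and between 0.44 and 1.09 with BSO plus TGZ.

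The summed signal of 12 neutrophil markers was 113 in vehicle, 259 with TGZ, 259.7 with BSO plus TGZ, 122 with RGZ and 128 with BSO plus RGZ, with Cxcr2, Ngp and Ltf not well above background in vehicle. Most of the vehicle sum is Csf3r, which changed little, at 100 in vehicle, 115 in both TGZ pools, 95.4 with RGZ and 93.8 with BSO plus RGZ. The sum was thus higher in the same 2 pools as C5ar1 and Cfp, and most of its rise is S100a9, at 6.20 in vehicle and at 104 and 103 in the TGZ pools. Of the markers, 7 of 12 were at least 2-fold higher with TGZ, 8 of 12 with BSO plus TGZ, 4 of 10 tested with RGZ and 4 of 12 with BSO plus RGZ, and none was 2-fold lower. Ly6g and Elane were below vehicle in both TGZ pools, at -0.70 and -0.10 with TGZ alone, and Mpo had its highest signal, 0.166, with RGZ.

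The 6 monocyte markers had a summed signal of 18.1 in vehicle, 19.9 with TGZ, 19.2 with BSO plus TGZ, 9.55 with RGZ and 8.02 with BSO plus RGZ. Most of the vehicle sum is Ly6c2, at 13.2. Ly6c2 was at 9.74 with TGZ, 8.52 with BSO plus TGZ, 5.01 with RGZ and 3.79 with BSO plus RGZ. In both TGZ pools 4 of 6 were at least 2-fold higher (Chil3, F13a1, Plac8 and Ccr2) and 1, Cx3cr1, was lower. Chil3 and F13a1 were not well above background in vehicle, nor Cx3cr1 with TGZ or Ccr2 with RGZ. With RGZ 1 was higher and 1 lower, and with BSO plus RGZ 2 and 1, the lower marker being Ly6c2 in both. The part of neutrophils and monocytes in the C5ar1 and Cfp values was not tested.

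C3ar1, the C3a receptor, was at 0.0699 in vehicle, 0.0726 with RGZ and 0.0607 with BSO plus RGZ, and was not well above background with TGZ or BSO plus TGZ.

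**Figure D4:**
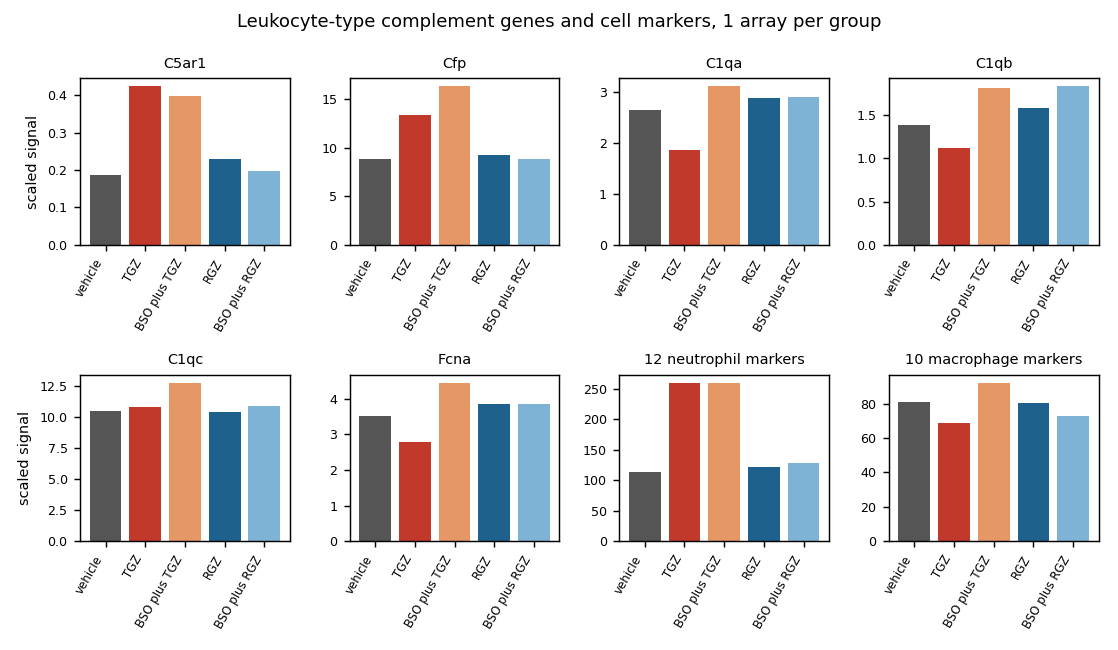
Scaled signal (y axis, from 0) in each of the 5 groups (x axis, 1 array each) for C5ar1, Cfp, C1qa, C1qb, C1qc and Fcna, and the summed scaled signal of 12 neutrophil and 10 macrophage markers. C5ar1, Cfp and the neutrophil sum are highest in the TGZ and BSO plus TGZ pools. C1qa, C1qb, Fcna and the macrophage sum are lowest with TGZ, and C1qa, Fcna and the macrophage sum are highest with BSO plus TGZ.

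Among the soluble regulators, Clu (clusterin, which blocks the membrane attack complex) was at 639.8 in vehicle, 941 with TGZ, 846 with BSO plus TGZ, 692 with RGZ and 668 with BSO plus RGZ. Vtn (vitronectin, which does the same) was at 435, 593, 568, 479 and 455. Both were highest with TGZ, by 0.56 (0.16 to 0.96) and 0.44 (0.05 to 0.84), which became 0.11 and 0.00 with spike-in scaling. Serping1, the C1 inhibitor, was at 134, 169, 161, 164 and 154, and Cfi, the protease factor I, ranged from 167 to 184. With RGZ and BSO plus RGZ all 5 soluble regulators were above vehicle, by 0.30 at most, and all 5 were so with median and spike-in scaling too.

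C4bp, the C4b-binding protein, had 2 probes that disagreed. They are shown by their first 30 bases, on the minus strand of chromosome 1 (mm9), because the finding rests on which is read.
C4bp main probe, chr1:132532724-132532783: accgggagttatgactgtatgttctcttaa
C4bp second probe, chr1:132554451-132554510: cttctattcataacatccagaaattggaaa

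The main probe was at 69.3 in vehicle, 59.6 with TGZ, 63.4 with BSO plus TGZ, 85.2 with RGZ and 79.8 with BSO plus RGZ, and its differences from vehicle had intervals that include 0. The second, dim probe was at 0.378, 0.0847 with BSO plus TGZ, 0.456 with RGZ and 0.400 with BSO plus RGZ, and was not well above background with TGZ. It was at least 5.70-fold lower with TGZ and 4.46-fold lower with BSO plus TGZ (interval 2.97 to 6.69), against 1.21-fold and 1.06-fold higher with RGZ and BSO plus RGZ. Read as the mean over probes, C4bp was past 2-fold lower in both TGZ pools. What transcript the second probe sees was not tested.

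Of the membrane regulators, Cd55, the decay accelerating factor, was at 1.35 in vehicle, 0.851 with TGZ, 1.17 with BSO plus TGZ, 1.41 with RGZ and 1.14 with BSO plus RGZ. Its difference with TGZ was -0.67 (-1.07 to -0.26). Other Cd55 probes well above background gave -0.02 and -0.20. Cd59a, which blocks the final pore, ranged from 5.62 to 7.43 and was lowest with BSO plus TGZ, at -0.40 (-0.80 to -0.00). Cd46 gave no value.

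TGZ and RGZ share the thiazolidinedione ring and differ at the other end of the molecule, where TGZ carries the chroman ring of vitamin E and RGZ a pyridine. They were given at the same dose, and were compared in 2 pairs, without and with BSO. Without BSO none of 29 members differed 2-fold, beside 9.24% of all genes higher with TGZ and 8.40% lower. In the BSO pair, TGZ gave 2.02 times the C5ar1 signal of RGZ (interval 1.47 to 2.78) and no member was lower, beside 8.31% and 5.26%. In either direction 17.6% of all genes were past 2-fold without BSO and 13.6% with it, and among the bright genes 9.32% and 6.31%, with 0 of the 21 bright members in both. That C5ar1 difference was under 2-fold with median scaling, spike-in scaling and normexp. Without BSO, C5ar1 was 1.85-fold higher (1.36 to 2.52), and Cfp was 1.44-fold (1.09 to 1.90) and 1.84-fold (1.39 to 2.42) higher in the 2 pairs, although with spike-in scaling Cfp was at 0.00 without BSO. Without BSO the interval excluded 0 for 32.1% of members, beside 46.6% of all genes, and with BSO for 14.3% beside 39.9%. The intervals that lay above 0 without BSO were those of Cfp, C5ar1 and Clu, the last at 0.44 (0.04 to 0.84), or -0.09 with spike-in scaling. Those that lay below 0 were of C1qa, C1qb, C4bp, C8a, Fcna and Cd55, and Cd55 was the lowest at -0.73 (-1.13 to -0.32). With BSO no interval lay below 0, and those of C8b, Cfp, C5ar1 and Masp1 lay above. All 6 terminal pathway genes were above 0 in that pair, from 0.01 to 0.64, although 3 of 6 were with median or spike-in scaling. All genes higher and lower went from 1988 and 1808 to 987 and 4464 for TGZ against RGZ with spike-in scaling. With BSO they went from 1775 and 1124 to 1117 and 2233, and to 1371 and 1657 with median scaling. C3ar1 had only a bound in both pairs and Cd46 no value. For the other members the interval of the difference includes 0, which does not show that the drugs act alike.

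BSO on top of each drug changed no member 2-fold. In BSO plus TGZ against TGZ 1.56% of all genes were higher and 0.503% lower, and in BSO plus RGZ against RGZ 0.517% and 0.715% were. In either direction the shares were 2.07% and 1.23%, and among the bright genes 0.486% and 0.370%. With TGZ, 6 members had intervals above 0, C1qa, C1qb, C6, C8b, Fcna and Cd55, the largest being C1qa at 0.74 (0.34 to 1.14). With RGZ, C8a and Masp1 had intervals below 0, at -0.45 and -0.48. The interval excluded 0 for 21.4% of members in the TGZ pair, beside 11.4% of all genes, and for 6.90% beside 9.75% in the RGZ pair. In the TGZ pair 13 of 28 measured members were above 0, against 11 with median scaling and 28 with spike-in scaling. In the RGZ pair 23 of 29 were below 0, against 18 with median scaling and 21 with spike-in scaling. The difference between the BSO differences, TGZ minus RGZ, had an interval above 0 for 5 members. They were C8b at 0.79 (0.23 to 1.36), Cd55 at 0.76 (0.19 to 1.33), C1qa at 0.74 (0.17 to 1.30), C8a at 0.71 (0.14 to 1.27) and Fcna at 0.67 (0.10 to 1.24). A shift common to all genes, as a change of scaling gives, moves these 5 together. Of the 5, Fcna and C8a had the lower limits nearest 0. With median scaling their BSO differences with TGZ and RGZ came closer together, at 0.20 and -0.36 for C8a and 0.60 and 0.08 for Fcna. With spike-in scaling they moved apart, at 0.55 and -0.41 for C8a and 0.95 and 0.04 for Fcna. The 5 intervals were computed only with the scaling used here, so their count may differ with another. With spike-in scaling the counts of all genes higher and lower were 719 and 40 for BSO plus TGZ against TGZ, in place of 326 and 105, where median scaling gave 257 and 147, and 131 and 130 for BSO plus RGZ against RGZ, in place of 110 and 152, where median scaling gave 155 and 101. These intervals are of spot error, and no BSO-only group was available to set beside them.

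**Figure D5:**
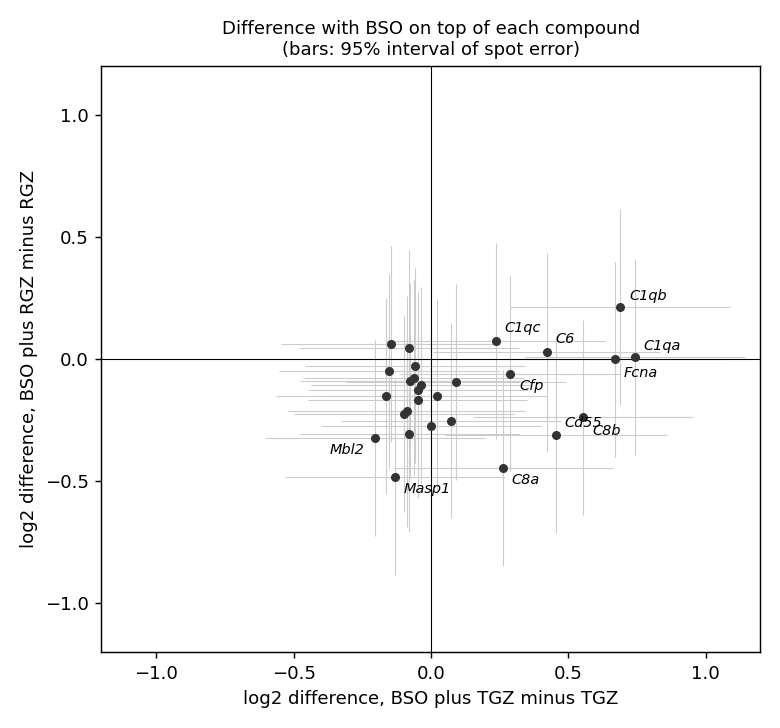
Log2 difference of BSO plus TGZ from TGZ (x axis) against that of BSO plus RGZ from RGZ (y axis), 1 point per member measured in all 4 groups, with bars for the 95% interval of spot error. C1qa, C1qb, Fcna, C8b, Cd55 and C6 lie to the right, between 0.42 and 0.74 with TGZ. Masp1 and C8a are lowest with RGZ, at -0.48 and -0.45.

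There were 27 other complement genes, listed apart from the members. TGZ left 3 of them at least 2-fold higher and 1 lower, BSO plus TGZ 2 and 1, and each RGZ group 1 and 1. Of all genes, 10.1% were higher and 9.47% lower with TGZ, and 8.31% and 5.89% with BSO plus TGZ. With RGZ the shares were 1.65% and 1.66%, and with BSO plus RGZ 3.05% and 3.78%. Cfd, the alternative pathway protease factor D known from fat cells, was at 0.459 in vehicle, 1.29 after TGZ and 1.08 after BSO plus TGZ, while in both RGZ pools it was not well above background. It was 2.81-fold and 2.35-fold higher in the TGZ pools and at least 9.19-fold and 8.66-fold lower in the RGZ pools. The 2 drugs were at least 25.8-fold apart without BSO and 20.3-fold with it. Cd93, a C1q-receptor-related protein of myeloid and endothelial cells, was at 2.99 in vehicle and at 13.4 and 12.3 in the TGZ pools, 4.46-fold and 4.10-fold above vehicle. It was 1.09-fold lower with RGZ and 1.04-fold higher with BSO plus RGZ. C1rl, a protease related to C1r, was at 15.7, 6.08, 7.49, 13.4 and 10.7, 2.59-fold and 2.10-fold lower in the TGZ pools. Fcnb, a myeloid ficolin, was 2.45-fold higher with TGZ. Crp, an activator of the classical pathway, was 2.02-fold and 2.06-fold higher with RGZ and BSO plus RGZ and 1.31-fold and 1.22-fold with TGZ and BSO plus TGZ. Cpn2, a subunit of carboxypeptidase N, the enzyme that inactivates C3a and C5a, was at -0.79 with TGZ.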

How the data were processed

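Liver RNA pools from 5 groups were hybridised to 1-colour Agilent arrays on 1 slide, with a single array for each group. Per the file headers the authors extracted the intensity of each spot with Agilent Feature Extraction 12.0.3.1, giving processed (background-subtracted) signals and their error. The deposited series table holds log2 values of the same arrays, which differ from log2 of the processed signal by a shift that is constant within an array. Its column medians run from 3.92 to 4.07, while the 75th percentile of its non-control probes runs only from 7.47 to 7.48. Its columns are thus nearly aligned at the percentile used here for scaling. The sources used here do not state how that shift was chosen.

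From the spot intensity, unflagged spots of a probe were averaged, put on the log2 scale and reduced by the array's 75th percentile of non-control probes. A probe not well above background on 1 of 2 arrays gave a bound, computed from the lowest signal among probes well above background. The 95% intervals come from the software's spot error (median SD of a difference 0.20). Members, lists and motifs were chosen with earlier results of these data known, and the threshold of 10 for bright genes was chosen after seeing the data. All members are named. Of the other complement and coagulation genes, those farthest from vehicle are named. Calculations used Python 3.11.15, pandas 2.3.3, numpy 2.4.6 and limma 3.58.1 (normexp), and were tested on simulated data. Settings tried were median and spike-in scaling, normexp, no filter, genes measured on all 5 arrays, the deposited table and the mean over probes. The number of arrays, 1 per group, limits the precision.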

Additional observations from a re-analysis of the deposited data

How the results depend on the processing

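With 1 array per group, no array could be left out, and no difference between groups has a replicate check. No paired analysis was possible because each group has 1 array. The deposited table and the restriction to genes measured on all 5 arrays changed no count of members. The deposited table holds the same processed signals with its columns nearly aligned at the 75th percentile, so it could not test the scaling used here. Spike-in scaling moved the median of all genes by -0.44 for TGZ against vehicle, -0.52 for TGZ against RGZ, 0.28 for BSO plus TGZ against TGZ and -0.29 for BSO plus TGZ against BSO plus RGZ, and the member medians became -0.46, -0.62, 0.24 and -0.16. It left 0 members 2-fold higher in both TGZ groups against vehicle and 0 in BSO plus TGZ against BSO plus RGZ. It gave 2 lower with TGZ (C6 and Cd55), 5 lower in TGZ against RGZ (C1qa, C1qb, C4bp, C8a and Cd55) and 1 higher in BSO plus TGZ against TGZ (C1qa). Normexp with its offset of 50, which pulls dim signals together, also left 0 higher in those 3 comparisons, and median scaling left 0 in BSO plus TGZ against BSO plus RGZ. The mean over probes gave 1 lower (C4bp) in TGZ against vehicle, BSO plus TGZ against vehicle, TGZ against RGZ and BSO plus TGZ against BSO plus RGZ, and 1 higher (C4bp) in BSO plus TGZ against TGZ. With no filter, Cd46 gave 1 lower with RGZ, 1 lower with BSO plus RGZ and 1 higher in TGZ against RGZ, and 2 members were higher in BSO plus TGZ against BSO plus RGZ. No direction of a called value was reversed. Low signal limits C3ar1 and Cd46, and the causes of these changes were not tested further.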
